A study of Rattus norvegicus with 30 samples.

Results

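The genes of the cytosolic ribosome, which encode the proteins of its large and small subunits, were followed in rat liver across a study of DE-71, a commercial flame retardant made of polybrominated diphenyl ethers (PBDE). Members were all genes whose platform symbol begins with Rpl or Rps and a digit, together with Rpsa and the Rplp genes. Kinase genes of the Rps6k family, pseudogenes and probe sets that name more than 1 gene were left out. The rule found 48 members among 14217 measured genes (0.338%), of which 33 belong to the large subunit and 15 to the small subunit. Each gene was read from 1 probe set, the one with the highest mean over all 30 arrays.

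All animals were Wistar/Han rats, and each of the 6 groups held 5 livers. Male control pups and female control pups came from dams given corn oil without DE-71 (0 mg/kg), and their livers were taken on postnatal day 22. Male PBDE pups and female PBDE pups had been exposed through the dam from gestation day 6 and then dosed directly, with 50 mg/kg DE-71 by gavage until postnatal day 21. Adult male controls (0 mg/kg) and adult male PBDE rats (50 mg/kg), the latter exposed in the womb, as pups and after weaning, were sampled at week 13. Dosing ran on 7 days a week before weaning and 5 days a week afterwards. Within a group the animals came from different dams, so p-values measure the spread between litters. No adult females were measured, and 1 dose was compared with the vehicle, so no dose-response can be read.

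Ribosomal proteins and ribosomal RNA are made in matched amounts and assembled in the nucleolus, and a growing liver spends a large share of its synthesis on ribosomes. The mRNAs of ribosomal proteins carry a 5′ terminal oligopyrimidine (TOP) tract, a C at the cap followed by a run of pyrimidines, through which the mTOR kinase controls their translation as a group. Some members have further roles: Rpl5 and Rpl11 with 5S ribosomal RNA bind Mdm2 when assembly is disturbed, Rps6 is the substrate of S6 kinase, and Rps27l is a paralog induced by p53.

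The start sites of 41 members were found in the RefSeq promoter table of build GRCr8. Below are 6 windows of 30 bases, 15 before and 15 from the annotated start. They show a pyrimidine run or its absence in genes named in the age comparison. Windows run 5′ to 3′ on the gene's strand, and capitals mark the longest run of C and T, at least 5 bases long, that begins with a C within 10 bases of the annotated start.
Rpl12: ggagcaacatccgtCTTTTCggctttcggt
Rpl35: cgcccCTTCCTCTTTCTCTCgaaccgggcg
Rplp0: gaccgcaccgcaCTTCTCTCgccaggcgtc
Rpl19: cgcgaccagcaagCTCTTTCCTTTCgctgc
Rpl3: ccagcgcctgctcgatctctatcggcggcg
Rps27l: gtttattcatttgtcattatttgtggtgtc
The windows lie at chr3:36661925-36661954 on the plus strand for Rpl12, chr3:43165907-43165936 on the minus strand for Rpl35, chr12:46718376-46718405 on the minus strand for Rplp0 and chr10:83519049-83519078 on the plus strand for Rpl19. Those of Rpl3, at chr7:113507976-113508005 on the minus strand, and Rps27l, at chr8:76443643-76443672 on the plus strand, held no such run. The last 15 bases of each window are the start of the first annotated exon. A tract of 5 or more bases was found in 27 of the 41 members (65.9%), against 28.9% of the 33469 windows of that table. With 8 or more bases the shares were 46.3% and 7.34%, and for a tract that starts exactly at the annotated base 26.8% and 2.63%. The search read the gene's strand alone, and a window without a match says only that these letters are not there. It also counted runs that begin before the annotated base, as every run shown here does. Those of Rpl5, Rpl13a, Rpl23, Rps6 and Rps15a lie wholly before that base, outside the annotated mRNA. A counted run is therefore not always a TOP tract at the cap.

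Values are log2 RMA intensities, in which a difference of 1 is a doubling, and levels of different probe sets cannot be ranked against each other. Array medians lay between 5.72 and 5.77. Of the 48 members, 38 had a mean over all arrays of at least 10, from 11.6 for Rpl14 to 14.1 for Rps29, and the lowest of these stood at the 96.0th percentile of the measured genes. The other 10 were Rpl7l1 (9.61), Rps27l (9.48), Rps4y2 (7.41), Rpl39 (6.95), Rpl26l1 (6.09), Rps13 (5.44), Rpl39l1 (4.80), Rpl30 (4.08), Rpl28 (4.04) and Rpl3l (3.90). The last 5 of these means were below 5.75, the median of all values, where a probe set gives little information on its gene. Among the 10 are 6 paralogs or copies of a core gene (Rpl3l, best known from striated muscle, Rpl39l1, Rpl7l1, Rpl26l1, Rps4y2 and Rps27l). Rpl28, Rpl30, Rps13 and Rpl39 encode core subunit proteins, and whether the low values of these 4 belong to the transcript or to the probe set was not tested. A further 30 probe sets name several ribosomal protein genes or pseudogenes, and 27 of them had a mean of at least 10. The hepatocyte markers Alb, Apoa1, Ttr, Serpina1 and Fgb stayed at or above 13.7 on every array. Array names in the labels divide the arrays into 2 sets of 3 groups. The first set holds both control groups of pups with the male PBDE pups, and the second holds the female PBDE pups and both adult groups. The dose comparisons of male pups and of adults and the sex comparison of control pups lie within 1 set. In the comparisons that cross sets, set and group cannot be told apart.

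The 38 well-measured members moved up and down together from animal to animal. After the group means were taken out, the median correlation between 2 of them over the 30 arrays was 0.78, and all 703 pairs were above 0. Each member's median correlation with the other 37 ran from 0.47 for Rpl4 and 0.61 for Rpl14 to 0.87 for Rpl12. Among 400 other genes with a mean of at least 12 the median was 0.05. For mitochondrial ribosomal proteins with a mean of at least 10 (28 genes) it was 0.67, for other mRNAs known to carry a TOP tract (8 genes) 0.66, for elongation and release factors (7 genes) 0.32 and for initiation factors (19 genes) 0.28. These are descriptions: the points share arrays, RNA preparation and normalization. Low members followed the rest less closely, with median correlations to the 38 of 0.51 for Rpl26l1, 0.40 for Rps27l, -0.04 for Rpl3l and -0.19 for Rps13.

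**Figure D1:**
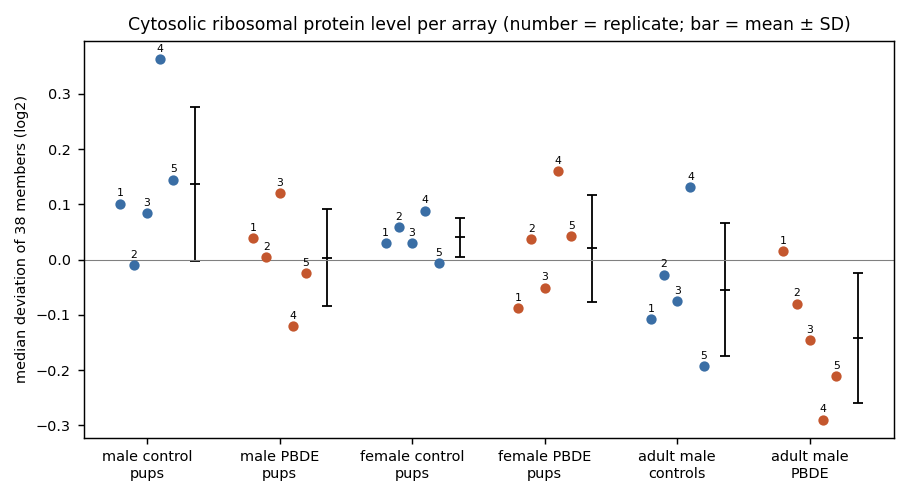
Median log2 deviation of the 38 members with a mean of at least 10 from their mean over the 6 group means, per array (points, numbered by replicate; blue control, red PBDE), with the group mean ± SD (n = 5). Replicate 4 of the male control pups stands at 0.36, above every other array, and replicate 4 of the adult male PBDE rats is lowest at -0.29.

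The shared level was summed up as the median deviation of the 38 members on an array. Male control pups had values of 0.10, -0.01, 0.08, 0.36 and 0.14, and male PBDE pups 0.04, 0.00, 0.12, -0.12 and -0.02. Female control pups kept to the narrowest range, 0.03, 0.06, 0.03, 0.09 and -0.01, and female PBDE pups gave -0.09, 0.04, -0.05, 0.16 and 0.04. The pup groups overlapped, with 1 control male far above the rest. Adult male controls had -0.11, -0.03, -0.08, 0.13 and -0.19, and adult male PBDE rats 0.02, -0.08, -0.15, -0.29 and -0.21. These groups overlapped too. In replicate 4 of the male control pups all 38 members were above their mean, and in replicate 4 of the adult male PBDE rats none was. Without that male control pup the median correlation among the 38 was 0.75. Of the 38 members, 32 had their highest group mean in male control pups and 32 their lowest in adult male PBDE rats. The 6 group means of a member spanned between 0.09 log2 units (Rpl19) and 0.43, with a median of 0.28, against within-group SDs of 0.06 to 0.21 with a median of 0.12. Large and small subunit genes stood alike: in male control pups their medians were 0.14 ± 0.14 and 0.13 ± 0.14, and in adult male PBDE rats -0.14 ± 0.12 and -0.13 ± 0.13 (mean ± SD, n = 5).

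**Figure D2:**
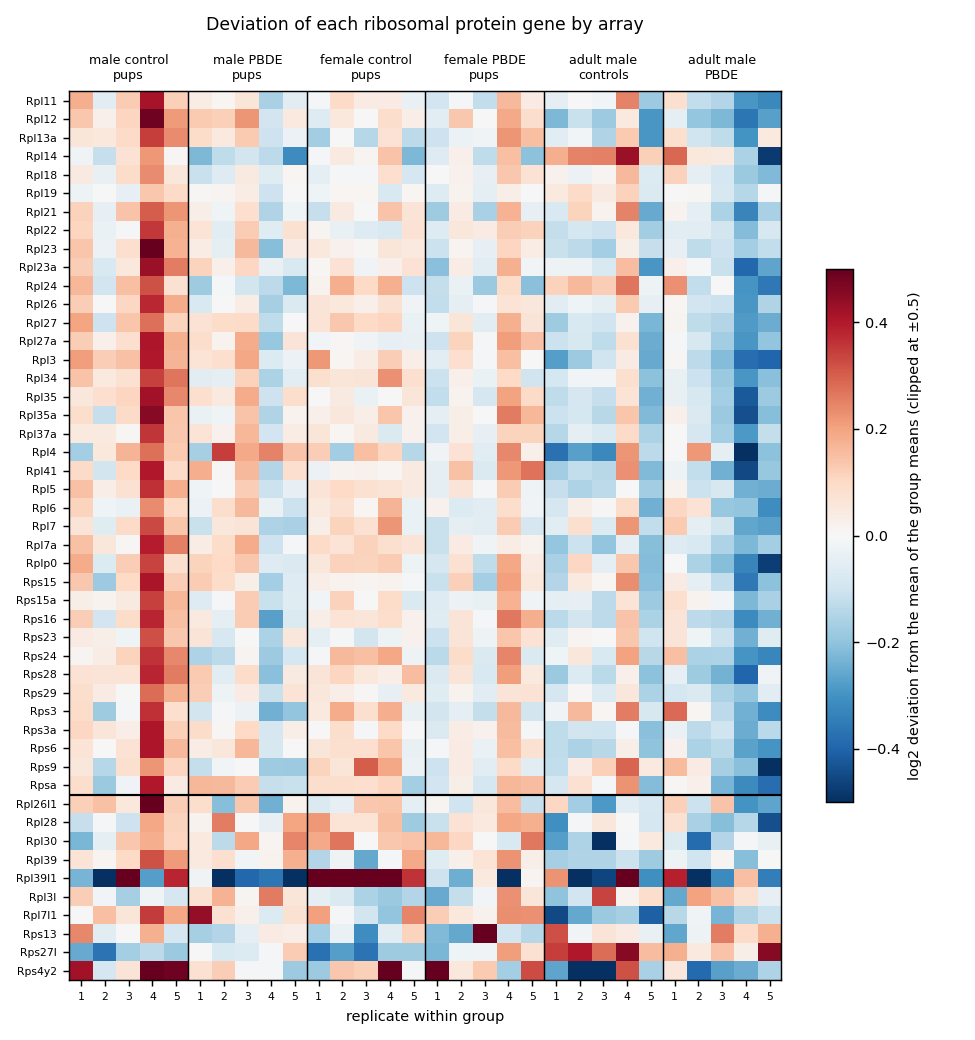
Log2 deviation of each of the 48 members (rows; the 38 with a mean of at least 10 above the line, the other 10 below) from the mean of its 6 group means on each array (columns, by group and replicate), with colours clipped at 0.5. Columns change colour as a whole among the 38, as in replicate 4 of the male control pups, whereas Rps27l and Rpl39l1 follow other patterns.

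Genes used as references in quantitative PCR differed in steadiness. Rpl19 had the smallest within-group SD of all members, 0.06, with group means between 13.28 and 13.37. Rps29 (0.08) and Rpl5 (0.09) came next, and the largest SDs were those of Rpl39l1 (0.39), Rps4y2 (0.32) and Rpl4 (0.21). Rplp0, a protein of the stalk that recruits translation factors, had group means from 12.87 ± 0.15 in male control pups to 12.51 ± 0.18 in adult male PBDE rats (mean ± SD, n = 5), and Rpl13a lay between 12.67 ± 0.15 and 12.90 ± 0.13. None of these 3 passed the test in a dose comparison.

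In male pups, DE-71 moved no member past the threshold. The fit was limma's moderated test with Benjamini-Hochberg adjustment over all probe sets, and pups were called at a false discovery rate of 0.01. It called 0 of 48 members, where 4.23% of all genes were called higher and 3.26% lower. At an unadjusted p under 0.05, 12 members were lower and 1 higher, beside 13.1% and 15.2% of all genes. Nonetheless 43 of the 48 differences lay below 0, with a median of -0.13 against 0.02 for all genes. The large subunit had 29 of 33 below 0 and the small subunit 14 of 15, and 28 of the 30 probe sets that name several ribosomal genes were below 0 as well, with a median of -0.13. Members named in the dose comparisons for the lowest adjusted p-values or for groups without overlap were chosen after their values were seen. Because the 38 members move together on an array, these signs are not independent observations. Without replicate 4 of the male control pups, the array with the highest level, the median was -0.07.

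**Figure D3:**
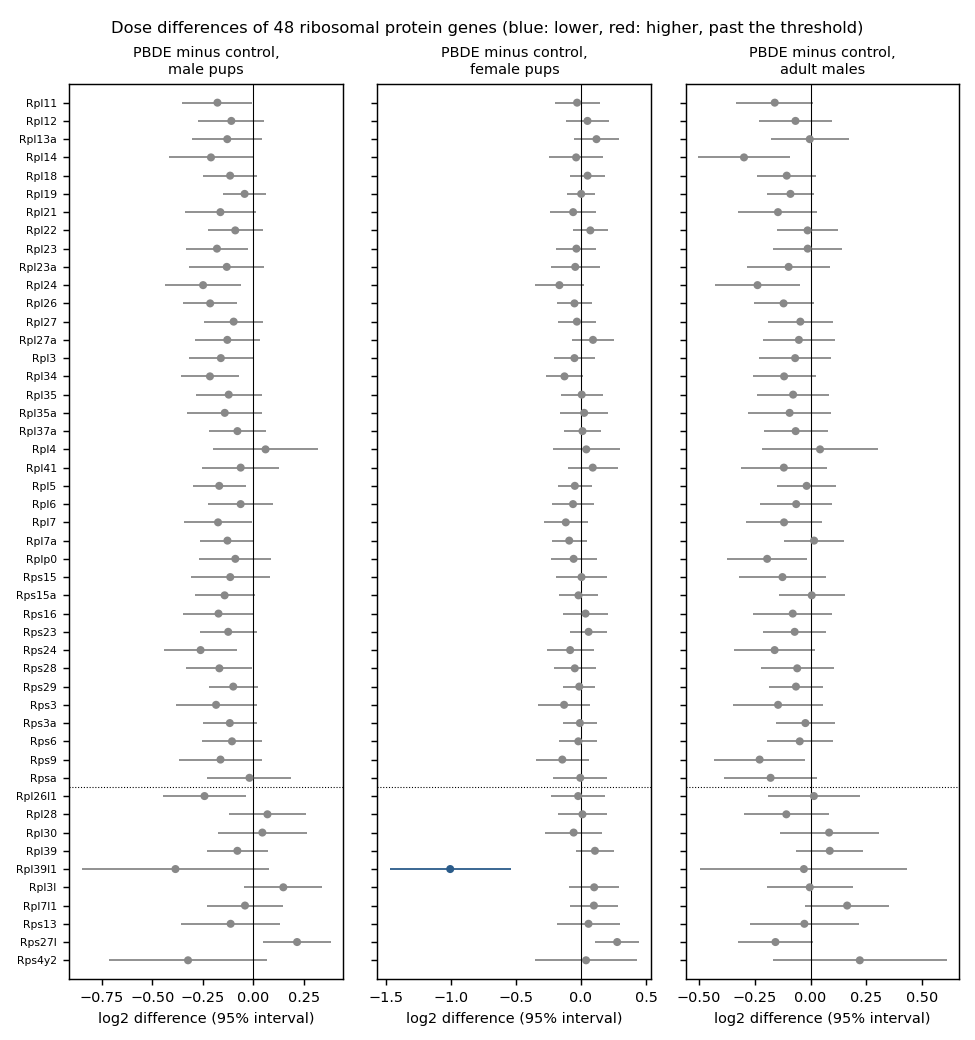
Log2 difference of PBDE minus control for each of the 48 members (points, with 95% intervals) in male pups, female pups and adult males; the dotted line parts the 38 members with a mean of at least 10 from the 10 below. Grey differences did not pass the threshold, and Rpl39l1 in female pups (-1.004) is the single coloured point; the horizontal scales differ between panels.

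The lowest adjusted p-values from limma in male pups belonged to Rpl26 (-0.21 ± 0.07, SE; adjusted p = 0.0331), a protein at the rim of the exit tunnel, and Rpl34 (-0.21 ± 0.07; adjusted p = 0.0427). Rps24, one of the genes mutated in Diamond-Blackfan anaemia, had 12.93, 12.95, 13.02, 13.28 and 13.15 in controls and 12.76, 12.78, 12.93, 12.73 and 12.82 under DE-71. Its groups only just failed to overlap, with the highest PBDE value and the lowest control value both at 12.93, and the difference was -0.26 ± 0.09 (limma, adjusted p = 0.0555). A second, dimmer Rps24 probe set (mean 5.92) gave 5.82, 6.77, 6.66, 6.72 and 6.58 in controls against 5.60, 5.22, 5.65, 5.68 and 5.78. That probe set passed, at -0.92 ± 0.18 (limma, adjusted p = 8.29e-04), so the probe sets of this gene disagree on size and call. It was singled out after its values were seen, and in female pups and adults it differed by -0.01 ± 0.18 and -0.04 ± 0.18. Rps27l went the other way: controls had 9.22, 9.11, 9.30, 9.35 and 9.29, and PBDE pups 9.47, 9.40, 9.41, 9.47 and 9.60. Every PBDE pup was above every control, the only member for which this held (6.77% of all genes; for Rps24, the only member with the opposite pattern, 5.13%), and the difference of 0.22 ± 0.08 did not pass (limma, adjusted p = 0.0907). The differences of other members with known further roles were smaller than that of Rpl26 and did not pass: Rpl11 (-0.18 ± 0.08), Rpl5 (-0.17 ± 0.06), Rps6 (-0.11 ± 0.07), Rplp0 (-0.09 ± 0.09) and Rpsa, also called the laminin receptor (-0.02 ± 0.10).

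Female pups, compared across array sets, showed the same family at almost the same level with and without DE-71. Of 48 members, 0 were called higher and 1 lower by limma at a false discovery rate of 0.01, where 3.95% of all genes were called higher and 2.18% lower. At an unadjusted p under 0.05 the counts were 1 and 1, beside 14.9% and 10.5% of all genes, and the median difference was -0.02, against 0.02 for all genes. It was -0.04 without female PBDE pup replicate 4 and 0.00 without replicate 1. The called member was Rpl39l1, a paralog of Rpl39 best known from the testis. Female control pups had 5.66, 5.69, 6.06, 5.59 and 5.16, and female PBDE pups 4.70, 4.55, 4.85, 4.23 and 4.81. The groups did not overlap, as was so for 1 other member, Rpl7a (-0.09), and for 4.38% of all genes in this direction and 6.56% in the other. The difference was -1.004 ± 0.23 (limma, adjusted p = 0.00413). Only 1 of the 10 values was above the median of all probe sets, 5.75, so no exact fold can be read from it. Female control pups had the highest group mean, but their lowest animal lay within the ranges of male control pups (4.19 to 5.44) and adult male controls (4.22 to 5.40). The call was lost without female control replicate 2 or 3 or female PBDE replicate 2 or 4, with adjusted p between 0.0105 and 0.0179.

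Rps27l was again the member with the largest positive difference in female pups. Controls had 9.10, 9.20, 9.11, 9.30 and 9.30, and PBDE pups 9.25, 9.45, 9.46, 9.68 and 9.55. The lowest PBDE pup, replicate 1, lay within the control range, and the difference was 0.28 ± 0.08 (limma, adjusted p = 0.0292, above the threshold of 0.01). Without that pup it was 0.34 and passed (adjusted p = 0.0096). In adults the same gene had 9.82, 9.88, 9.76, 9.93 and 9.63 in controls and 9.65, 9.52, 9.62, 9.50 and 9.93 under DE-71, a difference of -0.16 ± 0.08 (limma, adjusted p = 0.344). The difference between the adult and the male pup response, -0.37 ± 0.12, did not pass (age by dose in limma, adjusted p = 0.0917). It passed without adult male PBDE replicate 5 (-0.44, adjusted p = 0.0282).

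**Figure D4:**
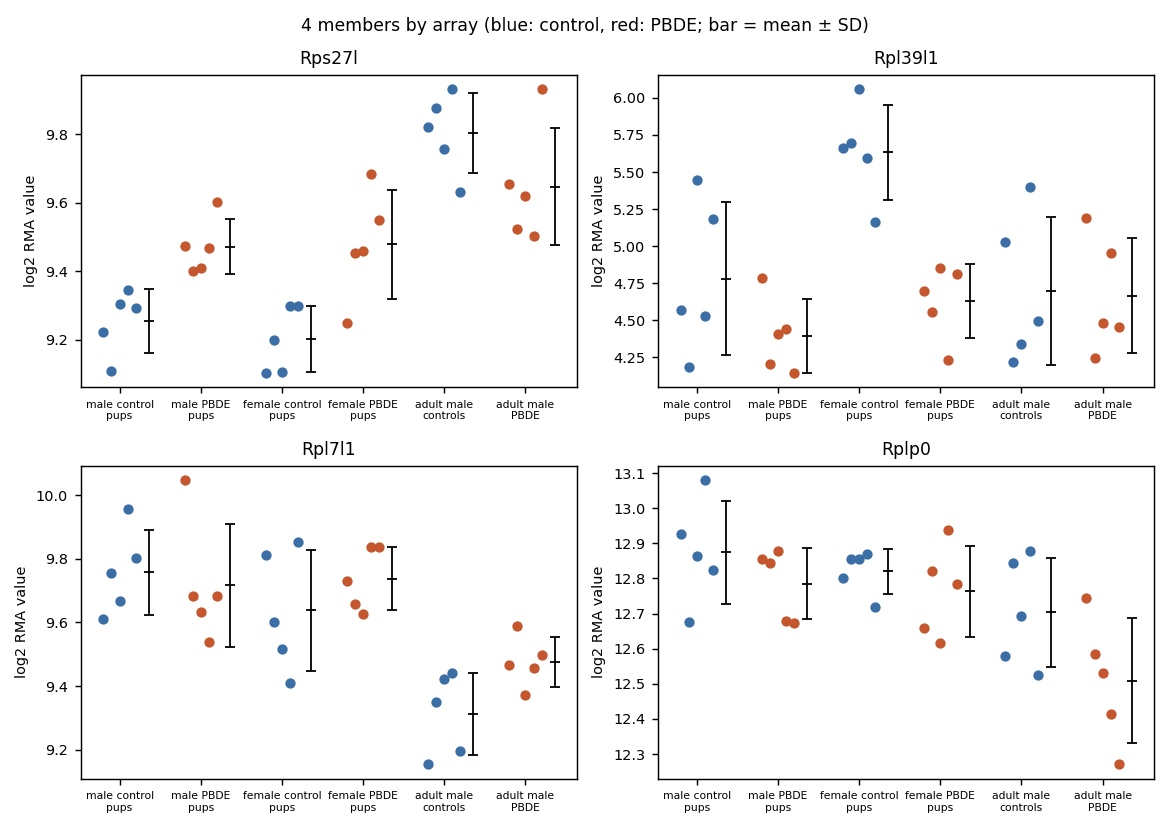
Log2 RMA value of Rps27l, Rpl39l1, Rpl7l1 and Rplp0 on each array (points; blue control, red PBDE), with the group mean ± SD (n = 5); the vertical scales differ between panels. Rps27l is higher in adults than in control pups, Rpl39l1 is highest in female control pups, Rpl7l1 is lower in adult controls than in male control pups, and the Rplp0 groups overlap.

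Adult males under DE-71 had no member past a false discovery rate of 0.05 in limma, where 1.86% of all genes were called higher and 2.04% lower. At an unadjusted p under 0.05, 4 members were lower and 0 higher, beside 9.24% and 9.28% of all genes. The share of members lower was thus near that of all genes, and the share higher was below it. No member's groups were free of overlap, beside 2.44% of all genes upward and 2.15% downward. Differences lay below 0 for 40 of 48 members, with a median of -0.07 against 0.01 for all genes and -0.04 for the 1794 genes with a mean of at least 10. The largest differences below 0 were those of Rpl14 (-0.30 ± 0.10, adjusted p = 0.107), Rpl24 (-0.24 ± 0.09, adjusted p = 0.173) and Rps9 (-0.23 ± 0.10, adjusted p = 0.236). Rpl14 had 11.80, 11.87, 11.87, 12.05 and 11.74 in controls and 11.91, 11.67, 11.66, 11.46 and 11.14 under DE-71. Adult male PBDE replicate 1 is the exception in that group, and without it Rpl14 (-0.38 ± 0.10, adjusted p = 0.025) and Rpl24 (-0.32 ± 0.09, adjusted p = 0.0373) passed and the family median was -0.11. The median was -0.03 without adult male control replicate 4 and -0.04 without adult male PBDE replicate 4. Precision differed between members. For Rpl19, the narrowest, the 95% interval of the dose difference lay between -0.15 and 0.06 in male pups, -0.10 and 0.11 in female pups, and -0.20 and 0.02 in adults. For Rpl39l1, the widest, it lay between -0.85 and 0.08 in male pups and between -0.49 and 0.43 in adults.

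RNA quality did not stay level between groups. The 3′ minus 5′ difference of the Gapdh control probe sets, which grows as RNA shortens, was 1.61 ± 0.33 in male control pups and 2.09 ± 0.65 in male PBDE pups, 1.26 ± 0.50 and 1.93 ± 0.30 in female pups, and 0.62 ± 0.18 and 1.17 ± 0.62 in adults (mean ± SD, n = 5). In a two-sided exact permutation test the dose differences gave adjusted p = 0.298, 0.0952 and 0.0952 over 12 tests. With this value as a covariate Rpl39l1 in female pups differed by -0.92 ± 0.25, nearly as much as without it, and no longer passed (limma, adjusted p = 0.0233). Among adult male PBDE rats replicate 5 had a Gapdh value of 2.25 against 0.73 to 1.04 in the other 4, whose mean was 0.90. That array also had the lowest Rpl14 and Rps9 levels, and without it the adult dose differences were -0.19 ± 0.09 for Rpl14 and -0.12 ± 0.09 for Rps9. Markers of macrophages and of endothelium also moved with dose in male pups. There 2 of 8 macrophage markers (Aif1, C1qa) and 2 of 5 endothelial markers (Stab2, Lyve1) fell, beside 3.26% of all genes. The mean macrophage marker level of an array was 9.11 to 9.36 in control and 8.69 to 8.84 in PBDE pups. In adults 1 of the 8 macrophage markers fell with dose, Aif1 (-0.64 ± 0.17), beside 2.04% of all genes, with a list median of -0.43. Of 4 cholangiocyte markers Epcam alone was called, higher in all 3 dose comparisons. In male pups, female pups and adults, 4.23%, 3.95% and 1.86% of all genes were called higher. The medians of the cholangiocyte list were 0.03, -0.08 and -0.07 in the same order. The part of these markers in the family's differences was not tested. In whole liver, fewer cells of a type and less RNA per cell cannot be told apart.

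Sex made no called difference. Between male and female control pups, within the first array set, 0 of 48 members passed in limma at 0.01, where 0.0141% of all genes were called higher and 0.0281% lower in males. At an unadjusted p under 0.05, 6 members were higher in males and 1 lower, beside 4.92% and 3.8% of all genes. The median was 0.09 with 43 of 48 above 0, and 0.04 without male control pup replicate 4. Rpl39l1 (-0.85 ± 0.23, adjusted p = 0.163) and Rpl13a (0.23 ± 0.08, adjusted p = 0.444) were the furthest apart in either direction. Rpl27a (0.18) was the 1 member with every male above every female, beside 0.823% of all genes, and 0.724% had every male below. In PBDE pups, across sets, 0 members passed at 0.01 and 0 had an unadjusted p under 0.05 (background 0.0281% in either direction at 0.01, and 2.6% higher and 2.55% lower at the unadjusted cut), and none had groups free of overlap (0.577% and 0.485% of all genes). The sex by dose interaction called 0 members and 0% of all genes at 0.01, with a lowest adjusted p of 0.977. It had 1 member lower and 0 higher at an unadjusted p under 0.05, beside 3.02% and 2.6% of all genes. The age by dose interaction called 0 members at 0.05, where 1.13% of all genes were called higher and 1.35% lower. At an unadjusted p under 0.05 the count was 1 lower, Rps27l, and 0 higher, beside 8.8% and 7.27% of all genes. The median of the members in this interaction was 0.05, and -0.00 without male control pup replicate 4.

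Age in controls was the comparison with the most ribosomal protein genes called. Adult male controls had lower levels of 19 members than male control pups and a higher level of 1, by limma at a false discovery rate of 0.05. These are 39.6% and 2.08% of the 48 members, beside 18.6% of all genes called lower and 10.9% called higher. The median difference was -0.20, against -0.02 for all genes, and 41 of 48 members were below 0. Folds were small. Every adult was below every pup for 7 of the 48 members, a share near the 13.4% of all genes. The groups compared lie in different array sets, so age and set cannot be told apart.

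**Figure D5:**
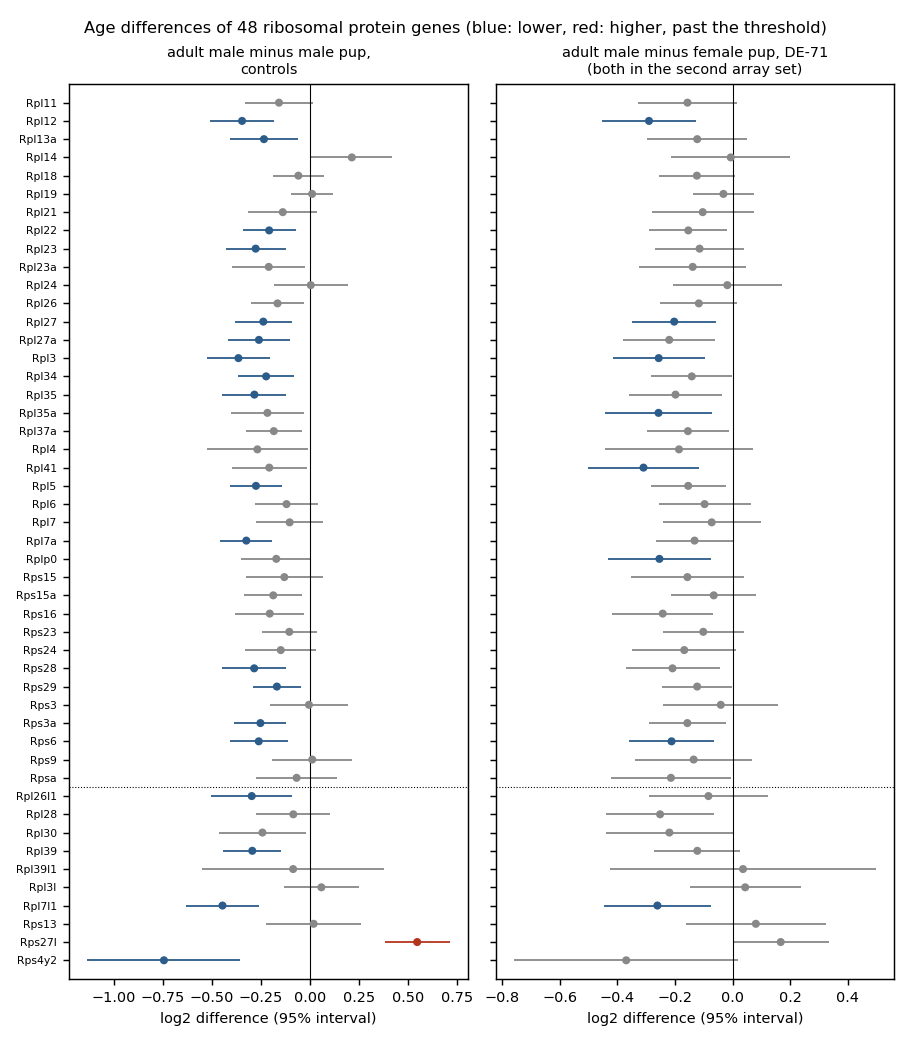
Log2 difference of adult minus pup for each of the 48 members (points, with 95% intervals): adult male controls minus male control pups, across array sets, and adult male PBDE rats minus female PBDE pups, within the second set. In controls 19 members are coloured as lower and Rps27l as higher; within the second set 8 are coloured as lower and none as higher.

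The large subunit held 14 of the 19, out of 33 measured, and the small subunit 5 of 15. Rpl3, which lies next to the peptidyl transferase centre, had 13.08, 13.00, 13.02, 13.28 and 13.05 in pups and 12.60, 12.70, 12.78, 12.91 and 12.62 in adults, a difference of -0.36 ± 0.08 (limma, adjusted p = 8.20e-04). Its second probe set fell too, by 0.49. By contrast a dim second probe set of Rpl7 (mean 7.34) rose by 0.36 (limma, adjusted p = 0.0492), where the main Rpl7 probe set gave -0.10 ± 0.08. The dim second probe set of Rps24 (mean 5.92) passed at -0.61 ± 0.18 (limma, adjusted p = 0.0129), and its main probe set was not called. Further Rpsa probe sets gave -0.24 ± 0.11 and -0.31 ± 0.12, against -0.07 for the main one, and none of them was called. Rpl12, at the base of the stalk, went from 12.98, 12.87, 12.95, 13.33 and 13.06 to 12.62, 12.73, 12.67, 12.89 and 12.56 (-0.35 ± 0.08, limma, adjusted p = 0.0018); adult replicate 4 reached into the pup range. Rpl7a, a protein of the large subunit, read 13.60, 13.50, 13.45, 13.84 and 13.70 in pups and 13.25, 13.34, 13.25, 13.40 and 13.23 in adults. Its groups did not overlap, and it fell by 0.32 (limma, adjusted p = 4.27e-04).

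The Mdm2-binding pair parted at the threshold. Rpl5 had 13.38, 13.27, 13.31, 13.60 and 13.42 in pups and 13.12, 13.09, 13.11, 13.24 and 13.06 in adults, with no overlap, and differed by -0.27 ± 0.06 (limma, adjusted p = 0.00183). Rpl11 differed by -0.16 ± 0.08 (limma, adjusted p = 0.196), and the difference between these 2 genes was not tested. Rps6 had 13.26, 13.19, 13.26, 13.59 and 13.35 in pups and 13.06, 13.03, 13.05, 13.22 and 12.99 in adults. Adult replicate 4 lay above 1 pup, and the difference was -0.26 ± 0.07 (limma, adjusted p = 0.00805). Rpl35 (-0.28 ± 0.08), Rpl23 (-0.28 ± 0.08) and Rpl39 (-0.29 ± 0.07) fell as well, and the Rpl39 probe set is dim. Of the reference genes, Rpl13a fell by 0.23 (adjusted p = 0.0455) but was called in 3 of the 10 fits that left out 1 array and not with the covariate. Rplp0 gave -0.17 ± 0.09 (adjusted p = 0.167) and Rpl19 0.01 ± 0.05 (adjusted p = 0.903; 95% interval -0.09 to 0.12). The remaining called members, Rps28, Rps3a, Rpl27a, Rpl27, Rpl34, Rpl22, Rps29 and Rpl26l1, fell by 0.17 to 0.30.

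Paralogs gave the largest differences in both directions. Rps27l rose from 9.22, 9.11, 9.30, 9.35 and 9.29 in male control pups to 9.82, 9.88, 9.76, 9.93 and 9.63 in adult controls, a difference of 0.55 ± 0.08 and a fold of 1.46 (limma, adjusted p = 8.49e-06). All adults were above all pups (7.69% of all genes). Rpl7l1, a paralog of Rpl7, went from 9.61, 9.76, 9.67, 9.96 and 9.80 to 9.15, 9.35, 9.42, 9.44 and 9.20 without overlap (-0.45 ± 0.09, limma, adjusted p = 5.28e-04). A second Rpl7l1 probe set gave -0.16 ± 0.09 (adjusted p = 0.183), so its probe sets disagree on the call. Rps4y2, annotated on chromosome 4 in GRCr8, had 7.83, 7.33, 7.48, 8.15 and 7.90 in pups and 7.15, 6.51, 6.32, 7.73 and 7.25 in adults, with overlap (-0.74 ± 0.19, limma, adjusted p = 0.0045). Rpl3l (0.06 ± 0.09) and Rpl39l1 (-0.08 ± 0.23) did not pass, and both means were below the median of all values.

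Among the fits that left out 1 array, the count moved most without adult male control replicate 4, with 27 members lower beside 18.3% of all genes, and without male control pup replicate 4. Without that pup 12 members were lower, all of them among the 19 and 25.0% of the family, beside 16.9% of all genes, and the median was -0.14. The 12 members called lower in every fit that left out 1 of the 10 arrays were Rpl12, Rpl23, Rpl3, Rpl35, Rpl39, Rpl5, Rpl7a, Rpl7l1, Rps28, Rps3a, Rps4y2 and Rps6. Adults can also be compared with pups within the second array set, though under DE-71 and between the sexes: adult male PBDE rats minus female PBDE pups gave 8 members lower and 0 higher, beside 15.2% and 6.23% of all genes, with a median of -0.15. Rpl7l1 alone had no overlap there, beside 11.2% of all genes downward and 4.54% upward. The share of members, 16.7%, was near that of all genes. All 38 members with a mean of at least 10 were below 0 there, and 5 of the 8 were among the 19 (Rpl12, Rpl27, Rpl3, Rpl7l1 and Rps6). Rps27l differed by 0.17 ± 0.08 (limma, adjusted p = 0.172). Males under DE-71, across sets, gave 4 members lower (8.33%) and 0 higher, beside 13.6% and 5.20% of all genes. The share of members lower was thus below that of all genes. Of these 4 members, 3 were among the 19. No member had groups without overlap, beside 9.69% of all genes downward and 3.76% upward.

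RNA quality and cell type marker levels also differed between the age groups. Gapdh 3′ minus 5′ was 0.62 ± 0.18 in adult controls and 1.61 ± 0.33 in male control pups (two-sided exact permutation test, p = 0.00794, the smallest that 5 against 5 allows; adjusted p = 0.0476 over 12 tests), and for Actb the values were 2.00 ± 0.24 and 3.19 ± 0.40. With the Gapdh value as a covariate 6 of the 48 members were lower beside 10.8% of all genes, so the share of members was near that of all genes. All 6 were among the 19: Rpl3 (-0.40 ± 0.10), Rpl12 (-0.29 ± 0.10), Rpl5 (-0.28 ± 0.08), Rpl7a (-0.29 ± 0.08), Rps6 (-0.27 ± 0.09) and Rps4y2 (-0.75 ± 0.24). Rps27l stayed higher (0.69 ± 0.09). Markers of stellate cells were lower in adults for 5 of 6 genes (median -2.10), of erythroid cells for 4 of 6 (median -1.17) and of endothelium for 3 of 5 (median -0.46). Of all genes 18.6% were called lower. The mean stellate marker level of an array was 8.35 to 9.17 in male control pups and 6.83 to 7.07 in adult controls, and erythroid levels 7.81 to 8.43 and 6.77 to 7.60. Of the 6 lymphocyte and 3 myeloid markers none passed. The part of these cells in the family's decrease was not tested.

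The presence of a tract in the start windows shown above can be set beside the age difference for the 32 well-measured members with a window. The 21 with a tract of 5 or more bases had a median of -0.22 (range -0.35 to 0.21) and 11 called lower. The 11 without one had a median of -0.16 (range -0.36 to 0.01) and 2 called lower, a share near the 18.6% of all genes. These are descriptions: the ranges overlap, Rpl3 has no tract in its window and fell, and Rpl19 has one and differed by 0.01. Members whose run lies before the annotated start count here as having a tract. The age comparison of controls crosses array sets. Within the second set, adult male PBDE rats minus female PBDE pups gave 4 of the 21 and 2 of the 11 lower, beside 15.2% of all genes. The medians there were -0.16 with a tract and -0.13 without. Males under DE-71, across sets, gave 3 and 1 lower, beside 13.6% of all genes, with medians of -0.13 and -0.12. In male pups under DE-71 the medians were -0.13 and -0.16, and in adults -0.07 and -0.12.

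Other genes of ribosome production and translation were read from lists, in the same fits, for adult male controls minus male control pups. That comparison crosses array sets, and the 3′ minus 5′ values of its groups differed, as given above. In it 18.6% of all genes fell and 10.9% rose. With age, 39 of 56 ribosome assembly factors (69.6%) fell and 2 rose (median -0.38), the largest decreases being those of Gar1 (-1.04 ± 0.14), a protein of H/ACA particles, Nop58 (-0.86 ± 0.15), of C/D box particles, Rrp1b (-0.83 ± 0.14) and Tsr1 (-0.83 ± 0.11). Of 15 genes of RNA polymerase I and its factors 6 fell, led by Taf1d (-0.89 ± 0.16) and Polr1e (-0.74 ± 0.13), and 1 rose. Among 30 initiation factors 15 fell and 0 rose, with Eif1ax (-0.95 ± 0.09) and Eif2s1 (-0.52 ± 0.08) first. The shift of the assembly factors was thus larger in median than that of the ribosomal proteins, -0.38 against -0.20, and the 2 medians were not tested against each other. Within the second array set, adult male PBDE rats minus female PBDE pups, the medians were closer, -0.21 and -0.15. There 20 of the 56 assembly factors fell, beside 15.2% of all genes. Males under DE-71, across sets, had 15 of 56 lower, beside 13.6% of all genes, and medians of -0.18 and -0.13. Of 9 elongation and release factors 3 fell (Gspt1, Eef1a1 and Eef1d, by 0.21 to 0.32). Of 11 other TOP genes 4 fell, among them Hnrnpa1 (-1.09 ± 0.13) and Nap1l1 (-0.55 ± 0.07); Eef1a1 and Eef1d stand in both lists. Among 16 mTOR and TOP regulators 4 fell and 1 rose, and Ddit4, an mTOR inhibitor, differed by -1.61 ± 0.21 and Sesn2, another inhibitor of the pathway, by 0.92 ± 0.12. Of 73 mitochondrial ribosomal proteins 17 (23.3%) fell and 4 rose (median -0.10), and this share and the 25.0% of the mTOR list were near that of all genes.

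Under DE-71 in male pups some of these lists held called genes, beside 4.23% of all genes called higher and 3.26% lower. Of the 56 assembly factors 10 (17.9%) fell and 0 rose (median -0.25), among them Nop58 (-0.62 ± 0.15), Ppan (-0.58 ± 0.13), Gar1 (-0.57 ± 0.14) and Mphosph10 (-0.53 ± 0.10), all with an adjusted p from limma of at most 0.00823. Hnrnpa1 (-0.73 ± 0.13) was the one TOP gene of 11 that fell, and Ddit4 (-0.84 ± 0.21) the one mTOR gene of 16, and such single calls are too few to set against the share of all genes. Of the 15 polymerase I genes 0 were called. Of 30 initiation factors 2 fell (Eif4g2, Eif2b4) and 1 rose (Eif2b2). In female pups 0 of 56 assembly factors passed (median -0.09), beside 3.95% of all genes called higher and 2.18% lower. In adults 1 fell, Mphosph10 (-0.45 ± 0.10, limma, adjusted p = 0.0119), beside 1.86% of all genes called higher and 2.04% lower. Elongation and release factors had 0 of 9 called in each of these 3 comparisons. Whether the list and the ribosomal proteins differ in their response was not tested.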

How the data were processed

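Livers of 30 rats were hybridised, from 50 ng of total RNA each and after 2 rounds of 3′ amplification per the labels' protocols, to whole-genome Affymetrix rat arrays. In the authors' deposited table the values are log2 intensities, and the submitters' processing notes name RMA; no software or version is given in the sources used here. RMA forces arrays onto 1 distribution, so a level is relative to the rest of its array. No detection calls were used here, and the number of arrays limits precision.

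The table held 31099 probe sets; 57 controls were kept for 3′ minus 5′ values and 31042 were tested. The platform annotation gave 20826 probe sets 1 gene, 436 several and 9780 none, and 20758 symbols were brought up to date. Of 55 probe sets naming 1 member, 48 were used; 6 members had more than 1, and 2 pseudogene probe sets were left out. Of the value columns 0 were unused.

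One fit over the 30 arrays estimated the 6 group means (limma 3.58.1, R 4.3.3), followed by eBayes and Benjamini-Hochberg adjustment over all tested probe sets, after testing the fit on simulated data. Calls were made at a false discovery rate of 0.01 in pups and 0.05 in adults and for age, following the series design, whose own tool was R/maanova; errors are SE unless stated. The comparison of adult with pup controls was added to that design. Named genes were the largest called members of a comparison, up to 10 in each direction, a list of index genes, members with extreme level or spread, and up to 4 called genes of a related list. Members and lists were chosen with earlier results of these data known. Among the index genes Rps18, Rpl32, Rpl22l1, Rpl10l and Rpl36al are not analysed here. Replicate numbers were not taken to name a shared dam. Alternatives were another normalization, a filter on low values, the mean of all probe sets, fits of the compared groups alone, a covariate, a block and leaving out each array.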

Additional observations from a re-analysis of the deposited data

Results flagged for a closer look

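In 4 of 126 group values examined, among the named members, 1 array lay far from the other 4 of its group (gap over range above 0.71), where chance flags about 1 in 20. Rpsa was 12.038 in female control pup replicate 5, below the 12.292 to 12.318 of the others. Rpl26l1 was 6.6336 in male control pup replicate 4, above 6.1394 to 6.2321; the 38 well-measured members were high on the same array. Rpl7l1 was 10.047 in male PBDE pup replicate 1, above 9.5383 to 9.6833. Rpl19 was 13.218 in male PBDE pup replicate 4, below 13.326 to 13.359; on that array 1 of the 38 members was above its mean.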

How the results depend on the processing

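For age in controls, 19 members were lower and 1 higher. Fitting only the groups compared gave 11 lower (16.6% of all genes). The Gapdh covariate gave 6 lower (10.8% of all genes, near the share of members). Leaving out 1 array gave 12 to 27 lower and 1 higher throughout. The comparisons under DE-71 were chosen after seeing the data. Males across sets gave 4 lower and 0 higher (13.6% of all genes lower). Within the second set 8 were lower and 0 higher (15.2% of all genes lower). The cause was not tested. Leaving out 1 array gave 0 to 1 lower and 0 to 1 higher in female pups, 0 to 2 lower in adults and 0 to 1 lower for age by dose. The female pup call (1 lower) became 0 with the filter, which removes Rpl39l1, and 0 with the covariate; the male pup count became 1 lower with the mean of all probe sets (Rps24, -0.59 ± 0.11, adjusted p = 2.46e-04, from its second probe set), and age by dose 1 lower with the covariate (Rps27l, -0.38, adjusted p = 0.0413). Same-numbered arrays had a mean residual correlation of 0.00, and 18 of their 75 pairs were above 0.1. A mean over all pairs cannot show whether single pairs share a dam. Under a replicate block 1 named call was lost, Rpl13a with age (-0.23, limma, adjusted p = 0.0588). No alternative run reversed a called difference.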
